A study of Mus musculus with 5 samples.

Results

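Keratins build the filament skeleton of epithelial cells, and the keratin genes were followed here in developing mouse penis and limbs. The members were every gene whose symbol is Krt followed by digits and at most 1 letter, plus *Krtdap*, which gave 54 of the 32285 genes listed. Of these, 28 encode type I keratins and 25 type II keratins, and *Krtdap* encodes a small secreted protein of differentiating keratinocytes that is not a keratin. Single-cell RNA was counted in 5 libraries of mice that the labels give as C57BL/6N and the study's methods as C57BL/6J, with no altered gene or treatment named. The 3 penis libraries came from male mice at postnatal day 6 (P6), from a pair of litters. The study's methods state that the prepuce was removed to focus on the glans. The 1 forelimb and the 1 hindlimb library came from male embryos 15 days after conception. Tissue and age therefore cannot be told apart in any penis against limb comparison, and each limb is a single library. Nothing in the labels says which animal gave which penis library or whether the limb libraries pool several embryos, so p-values measure only the spread between these libraries.

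A keratin filament is made of paired chains, 1 of type I and 1 of type II. Keratinocytes of the basal layer of a stratified epithelium carry *Krt5* (type II) with *Krt14* (type I), and often *Krt15* (type I). On leaving the basal layer they turn on *Krt1* (type II) with *Krt10* (type I). Single-layered and urothelial cells carry *Krt8* with *Krt18* and often *Krt7* and *Krt19*, moist stratified linings carry *Krt4* with *Krt13*, stressed and companion-layer cells carry *Krt6a*, *Krt16* and *Krt17*, and hair and nail cells carry a further set. Of the members, 27 lie on chromosome 11 and 26 on chromosome 15, where *Krt18* is the only type I gene and stands next to *Krt8*. *Krtdap* lies on chromosome 7.

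Promoters of 37 members, 250 bases before to 50 bases after the annotated start, could be matched by symbol in RefSeq (build GRCm38.p6). The letters TATAAA, the core of a TATA box, were present on either strand in 20 of these 37 promoters (54.1%), against 13.6% of 32851 mouse promoters of the same length. TGANTCA, the letters bound by AP-1, was present in 2 of 37 (5.41%, against 7.81% of all), and GCCNNNGGC, the letters bound by AP-2, in 7 of 37 (18.9%, against 16.6%). A match is a description of these letters and not of a bound site. Below are 4 promoters that return in the results: *Krt8* and *Krt18*, whose products pair but whose transcripts parted outside the epithelium, and *Krt10* and *Krtdap*, which differed between layers and tissues. Sequences run 5′ to 3′ on the coding strand, and capitals mark the motif letters. In *Krt10* those capitals are TATAAA (26 bases before the start). In *Krt8* they are TATAAA on both strands, a joined run that begins 3 bases before the start. In *Krt18* they are GCCNNNGGC (83 bases before the start), and in *Krtdap* TGANTCA (81 bases before) followed by TATAAA (30 bases before).
Krt8 (chr15:102004293-102004592, minus strand): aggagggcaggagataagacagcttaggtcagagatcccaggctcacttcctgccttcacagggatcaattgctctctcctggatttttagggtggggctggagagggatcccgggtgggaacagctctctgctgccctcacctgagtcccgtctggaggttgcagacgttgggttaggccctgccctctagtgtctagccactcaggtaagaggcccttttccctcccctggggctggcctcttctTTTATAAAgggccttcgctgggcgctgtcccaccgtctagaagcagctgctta
Krt18 (chr15:102027966-102028265, plus strand): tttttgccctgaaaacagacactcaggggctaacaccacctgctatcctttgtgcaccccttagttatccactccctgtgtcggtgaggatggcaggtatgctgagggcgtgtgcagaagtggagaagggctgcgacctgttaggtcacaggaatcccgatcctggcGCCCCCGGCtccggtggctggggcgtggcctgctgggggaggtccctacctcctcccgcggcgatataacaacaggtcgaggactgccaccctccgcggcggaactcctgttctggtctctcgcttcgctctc
Krt10 (chr11:99389315-99389614, minus strand): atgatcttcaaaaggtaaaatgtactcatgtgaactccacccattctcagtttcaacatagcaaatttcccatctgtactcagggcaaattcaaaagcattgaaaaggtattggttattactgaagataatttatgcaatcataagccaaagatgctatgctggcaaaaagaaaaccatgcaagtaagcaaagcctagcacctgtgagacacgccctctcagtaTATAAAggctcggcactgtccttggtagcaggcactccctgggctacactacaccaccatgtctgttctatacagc
Krtdap (chr7:30787655-30787954, plus strand): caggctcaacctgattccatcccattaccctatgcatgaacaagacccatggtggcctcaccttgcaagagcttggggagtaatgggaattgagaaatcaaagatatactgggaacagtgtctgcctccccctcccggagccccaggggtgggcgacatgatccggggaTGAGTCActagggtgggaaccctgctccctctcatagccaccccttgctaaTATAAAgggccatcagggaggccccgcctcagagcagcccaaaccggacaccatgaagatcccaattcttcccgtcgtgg

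After filtering, the penis libraries held between 5708 and 7085 cells and 51529854 to 68417925 UMIs (unique molecular identifiers, 1 per captured transcript), the forelimb 22057 cells and 142718533 UMIs, and the hindlimb 20514 cells and 148752710 UMIs. Of the limb identity genes, *Tbx5* stood at 55.5 UMIs per 1000000 UMIs (CPM) in forelimb cells and 3.09 in those of hindlimb, and *Pitx1* at 1.03 and 68.6. No pair of libraries shared more than 203 cell barcodes. Levels are CPM of the summed cells of a class. A UMI counts a molecule from its 3′ end whatever the transcript's length, so levels were not scaled by length. Capture was not compared between genes, so ratios between genes are ratios of UMIs. Reads of near-identical copies (*Krt6a* with *Krt6b*, *Krt33a* with *Krt33b*, the group of *Krt81*, *Krt83*, *Krt86* and *Krt87*) could be split between them, which makes their values uncertain. *Krt5*, *Krt6a*, *Krt6b*, *Krt7*, *Krt8*, *Krt10*, *Krt12*, *Krt32*, *Krt75*, *Krt76*, *Krt80* and *Krt90* overlap a gene on the other strand.

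In whole libraries the keratins of basal keratinocytes had the highest levels of all members in penis and were higher there than in limb. *Krt15* was at 207, 205 and 203 CPM in the 3 penis libraries and at 46.6 and 39.8 in forelimb and hindlimb. *Krt14* was at 158, 162 and 142 CPM against 18.1 and 14.1, and *Krt5* at 112, 124 and 103 against 15.9 and 14.3. For all 3 genes each penis library lay above both limbs. Sums were compared with edgeR's quasi-likelihood test, adjusted by Benjamini-Hochberg over all genes tested, and a gene was called at an adjusted p under 0.01 with a log2 change beyond 1. The log2 change (penis over limb) was 3.19 ± 0.13 (SE) for *Krt14* (edgeR, adjusted p = 3.30e-07), 2.83 ± 0.11 for *Krt5* and 2.18 ± 0.08 for *Krt15*. Among 32 members tested, 11 were called higher in penis and 5 lower, while 24.5% of all 21723 genes were called (13% higher, 11.5% lower). The median log2 change was 0.69 over the members and 0.01 over all genes. Cells that the markers put in the epithelium made up 5.73, 5.74 and 5.29% of the penis libraries but 1.22% of forelimb and 1.57% of hindlimb cells. In such sums, fewer cells of a type and less RNA per cell cannot be told apart.

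Several members with a narrower range differed by more than the basal keratins. *Krt9*, the keratin of the thick skin of soles and palms, was at 4.49, 2.55 and 3.36 CPM in penis and at 0.0140 and 0.0605 in the limbs, a log2 change of 6.41 ± 0.43 (SE). *Krt2*, a late epidermal keratin, changed by 5.23 ± 0.36 and *Krt79*, a keratin of the upper hair follicle and sebaceous duct, by 4.06 ± 0.23. These 3 genes were almost absent from the limbs, with 11, 7 and 60 UMIs there against 654, 184 and 685 in penis. Also called higher were *Krt23* (2.43 ± 0.19), *Krt83* (2.28 ± 0.40), *Krt75* (2.07 ± 0.42), *Krt8* (1.70 ± 0.14) and *Krtdap* (1.24 ± 0.27). *Krtdap* missed the limits when any penis library was left out (1.14 to 1.31, adjusted p between 0.0108 and 0.0131) and without the forelimb (0.79). Lower in penis were *Krt77*, an epidermal partner of *Krt10* (−3.72 ± 0.61), *Krt18* (−1.19 ± 0.13; −0.43 and not called over all barcodes), and the hair keratins *Krt35* (−5.09 ± 0.67), *Krt34* (−3.63 ± 0.83) and *Krt33b* (−1.34 ± 0.34). *Krt34* lost its call without any 1 penis library or without the forelimb (−4.27 to −2.53), and *Krt33b* without any 1 of the 5 libraries (−1.46 to −1.20), with DESeq2, with no filter and without a penis cluster led by *Myoc* (−1.37, −1.34 and −1.23). *Krt1* (0.95 ± 0.33), *Krt10* (−0.16 ± 0.15), *Krt7* (−0.24 ± 0.23), *Krt19* (0.07 ± 0.17), *Krt20* (1.37 ± 0.44), *Krt78* (−0.996 ± 0.266) and *Krt80* (−0.30 ± 0.15) were not called. Without the hindlimb *Krt1* (1.61), *Krt20* (2.19) and *Krt78* (−1.24) passed the limits. Over all barcodes *Krt1* (1.82) and *Krt78* (−1.07) passed too, and *Krt78* also with DESeq2 (−1.01) and with no filter on low counts (−1.00176).

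To see which cells carried each keratin, epithelial cells were clustered with no keratin gene used, and clusters were named from other markers. In penis 1098 cells were epithelial-like and in limb 591. Basal-like cells, which carry *Trp63*, *Col17a1* and hemidesmosome genes, numbered 152, 164 and 153 in the penis libraries, 78 in forelimb and 63 in hindlimb. Suprabasal-like cells, which carry *Dmkn*, *Ly6d* and cornification genes, numbered 60, 50 and 35 in penis, 68 in forelimb and 140 in hindlimb. Penis also held 70 urothelial-like and 27 sebaceous-like cells. A limb cluster of 80 cells led by *Asprv1*, *Mal*, *Cnfn* and *Psca* carried both suprabasal and urothelial markers and was left unnamed, as were 4 further clusters of shallow cells.

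**Figure D1:**
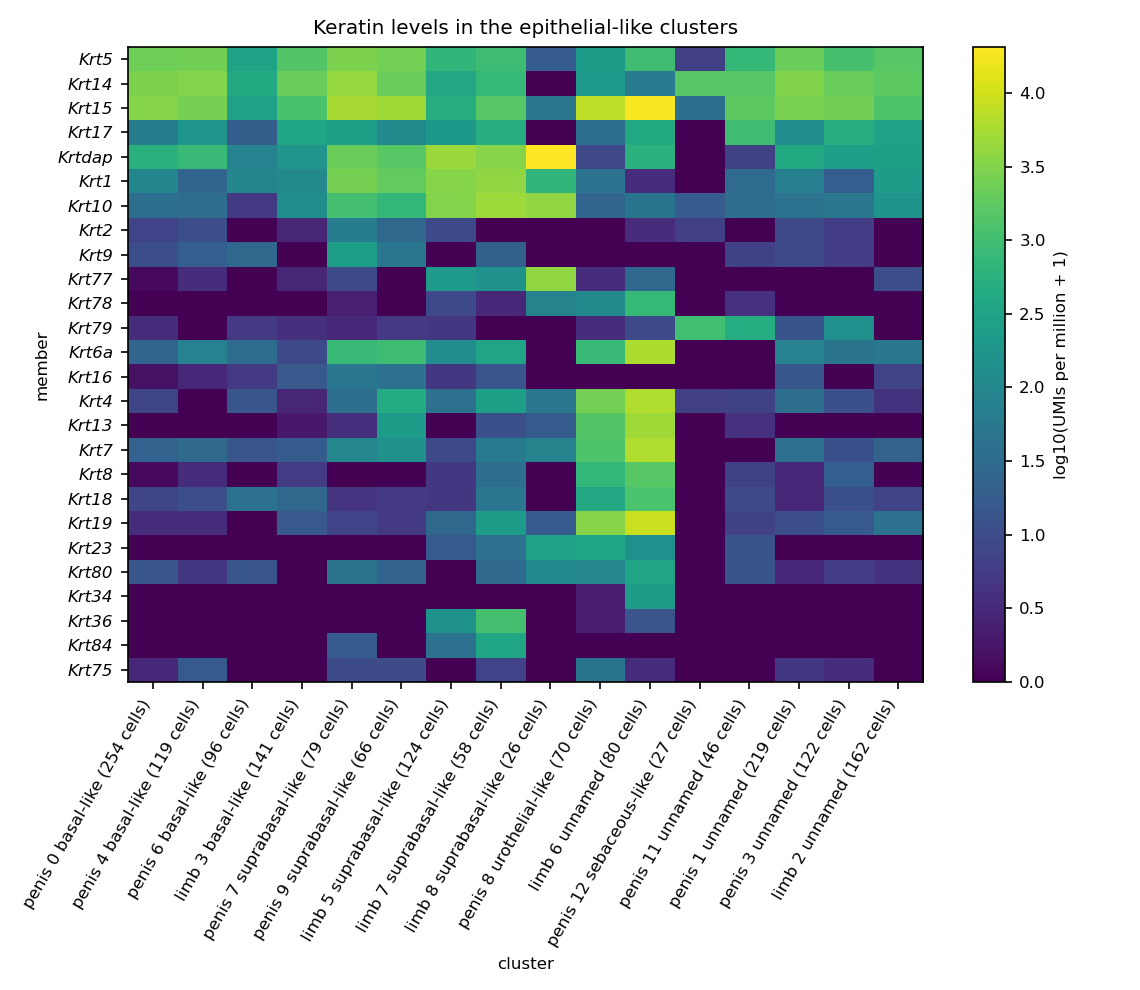
Level of 26 members (rows) in the 16 epithelial-like clusters of penis and limb (columns), as log10 of CPM plus 1; the cluster name and its number of cells stand under each column. *Krt5*, *Krt14* and *Krt15* are high in basal-like columns (lower in penis 6) and in the suprabasal-like penis columns, and *Krt15* is highest in limb 6. *Krt1* and *Krt10* are high in suprabasal-like columns. *Krt4*, *Krt7*, *Krt8*, *Krt13*, *Krt18* and *Krt19* are high in the urothelial-like penis column (penis 8) and the limb column led by *Asprv1* (limb 6).

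The map of levels by cluster showed different leading keratins in each group. The largest basal-like cluster of penis was led by *Krt15* (3341 CPM), *Krt14* (2909) and *Krt5* (2280.0), and that of limb by *Krt14* (2092), *Krt5* (1449) and *Krt15* (1194). The sebaceous-like cluster held *Krt14* (1561 CPM) and *Krt79* (1031), with *Krt15* at 38.2. Among the suprabasal-like clusters of limb, the smallest (26 cells, led by *Lor*, *Calm4* and *Hrnr*) was led by *Krtdap* (20506 CPM) and was the only one where *Krt77* passed 1000 CPM (3939). A basal-like penis cluster of 96 shallow cells had all 3 basal keratins between 297 and 412 CPM.

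Summed over all epithelial-like cells, 29 members were tested, and 4 were called higher and 20 lower in penis (12.8% of all genes called, 6.02% higher and 6.73% lower). Higher were *Krt79* (log2 change 4.03 ± 0.58, SE), *Krt9* (3.64 ± 0.48), *Krt2* (3.00 ± 0.48) and *Krt14* (1.13 ± 0.17). Of 422 penis UMIs of *Krt79* in these cells, 189 lay in the 27 sebaceous-like cells and 154 in an unnamed shallow cluster of 46 cells. The 20 lower ranged from *Krt17* (−1.11 ± 0.13) to *Krt36* (−10.44 ± 1.34; −6.39 without the forelimb, where 1 cell held 508 of 561 UMIs). They took in the epidermal genes *Krt10* (−2.77), *Krt77* (−6.04), *Krt78* (−3.51), *Krt1* (−1.20) and *Krtdap* (−1.17), the simple-epithelial and mucosal keratins *Krt7* (−2.64), *Krt13* (−2.48), *Krt18* (−2.31), *Krt19* (−2.28), *Krt4* (−1.959), *Krt8* (−1.95) and *Krt80* (−1.31), the stress keratins *Krt6a* (−1.98) and *Krt6b* (−2.99), and the hair keratins *Krt34* (−7.72), *Krt35* (−6.82), *Krt84* (−4.77) and *Krt32* (−3.38). *Krt2*, *Krt9*, *Krt79*, *Krt10*, *Krt34*, *Krt35*, *Krt36* and *Krt77* kept their call in every alternative that tested them. The other 16 lost it or turned direction in at least 1. *Krt34* was tested in 12 of 14 alternatives, and all 88 of its limb UMIs in these cells lay in the *Asprv1*-led cluster. Calls were lost with DESeq2 for *Krt1*, *Krt32*, *Krt84* and *Krtdap* (edgeR's values above, DESeq2 adjusted p = 0.180, 0.0139, 0.0707 and 0.102). With cells chosen by marker counts they were lost for *Krt1* (−0.67), *Krt6b* (−2.45), *Krt8* (−1.38), *Krt13* (−1.83), *Krt17* (−0.79), *Krt80* (−0.74), *Krt84* (−4.36) and *Krtdap* (−0.58). Without the hindlimb *Krt1* (−0.35), *Krtdap* (−0.22) and *Krt14* (0.98) were not called, and without the forelimb *Krt17* (−0.99), *Krt84* (−2.28) and *Krt6b* (−2.50) were not. In clusters of ordinary depth *Krt14* (0.96) and *Krtdap* (−0.29) kept their direction but were not called. Single penis libraries decided *Krt1* (−1.06 without penis 2, −1.03 without penis 3) and *Krtdap* (−1.16 without penis 1, −1.11 without penis 3), and *Krt80* was at −0.95 without the top doublet scores. *Krt15* (−0.02 ± 0.15), *Krt5* (0.78 ± 0.15; 1.29 and called with cells chosen by marker counts) and *Krt23* (−0.23 ± 0.24) were not called.

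The epithelial-like sums depended on a pair of small populations, 70 urothelial-like penis cells and the 80 *Asprv1*-led limb cells. The latter held 3574 of the 3727 limb UMIs of *Krt19* and 1937 of the 1944 of *Krt13* in epithelial-like cells. Without both populations 6 members were called higher and 10 lower, against 639 higher and 617 lower of all 11755 genes. *Krt19* (−3.91), *Krt8* (−2.40) and *Krt18* (−1.71) were still called lower, *Krt4* (−1.38) and *Krt17* (−0.93) were not called, and *Krt23* (−5.06) was called lower. *Krt15* (1.56) and *Krt6a* (1.07) were called higher, and *Krt7* (0.56), *Krt13* (1.18) and *Krt80* (0.75) turned direction without a call. Clusters of ordinary depth alone left out the *Asprv1*-led cells and the other shallow clusters of both tissues but kept the urothelial-like penis cells. This setting called 12 members higher and 7 lower, against 744 higher and 541 lower of all 11799 genes. The part of each left-out cluster in these counts was not tested. The layers were therefore compared apart.

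Basal-like cells differed between the tissues in which keratins they carried beside the basal pair. *Krt14* was at 3087, 3011 and 2511 CPM in penis and 2186 and 1957 in limb, and *Krt5* at 2360.1, 2303 and 2050.0 against 1525 and 1340.35. Every penis library lay above both limbs, but the log2 changes of 0.62 ± 0.14 (SE) for *Krt14* (edgeR, adjusted p = 0.00134) and 0.79 ± 0.14 for *Krt5* (edgeR, adjusted p = 5.39e-05) passed the p limit and not the limit on size. With cells chosen by marker counts *Krt5* passed both (1.26; edgeR, adjusted p = 0.00590). *Krt15* was at 3277, 2929 and 2893 CPM against 1365 and 949, and was called higher (1.53 ± 0.15; edgeR, adjusted p = 3.29e-09). In the penis basal-like sums *Krt15* stood about level with *Krt14* (1.06, 0.973 and 1.15 UMIs of *Krt15* per UMI of *Krt14*), and in limb below it (0.625 and 0.485). UMIs of *Krt14* per UMI of *Krt5* were 1.22 to 1.31 in penis and 1.43 and 1.46 in limb.

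Of 15 members tested in basal-like cells, 5 were called higher in penis and 4 lower (9.93% of all genes called, 5.41% higher and 4.52% lower). The median log2 change was 0.79 over the members and 0.02 over all genes. *Krtdap* was at 555, 669 and 568 CPM in penis and at 238 and 91.0 in limb (1.95 ± 0.21, SE). *Krt6a* was at 40.1, 48.1 and 33.0 CPM against 12.7 and 2.28 (2.42 ± 0.42). In both genes the groups did not overlap. *Krt9* had 70 UMIs and *Krt80* 57 in penis basal-like cells and none in limb, so against a floor of 3 counts over the limb group *Krt9* was at least 4.63-fold and *Krt80* at least 3.77-fold higher. Without the forelimb these bounds were 1.90-fold and 1.55-fold, and without the hindlimb 2.73-fold and 2.22-fold. Both lost the call without the forelimb (adjusted p = 0.0164 and 0.0362 in edgeR), and *Krt80* also with DESeq2 (adjusted p = 0.0138) and with cells chosen by marker counts (1.66).

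Lower in penis basal-like cells was *Krt17*, at 92.5, 86.2 and 101 CPM against 379 and 291 (−1.71 ± 0.14, SE; edgeR, adjusted p = 8.48e-11). *Krt10* was at 29.5, 33.6 and 38.6 CPM against 206 and 50.1, so that forelimb stood apart from hindlimb too (−1.87 ± 0.28), and without the forelimb the change was −0.42 and not called. In forelimb 1 cell held 87 of the 130 *Krt10* UMIs. *Krt18* (6.13, 7.51 and 14.3 CPM against 30.1 and 25.0; −1.46 ± 0.39) and *Krt19* (2.79, 3.01 and 1.87 against 15.8 and 13.7; −2.33 ± 0.57) rested on 30 and 16 UMIs in limb. The *Krt18* call was lost without penis 1, penis 2, forelimb or hindlimb (−1.56 to −1.23), and that of *Krt19* without forelimb or hindlimb (−2.21 and −2.42). With basal cells chosen by marker counts none of these 4 was called and *Krt19* was at 1.94, and DESeq2 called *Krt17* alone. *Krt1* overlapped between the groups (84.1, 48.1 and 94.5 CPM against 155 and 31.9, log2 change −0.30 ± 0.30). It ranged from −0.91 to 1.37 over 13 settings and stayed uncalled. *Krt2* (2.00 ± 0.86), *Krt7* (0.63 ± 0.36, but 1.49 and called with cells chosen by marker counts) and *Krt75* (5.99 ± 1.79, no UMI in limb) were not called. Median depth was 10339 to 12980.5 UMIs per basal-like cell in penis and 4836.5 and 6050.0 in limb. The 5 mesenchyme markers (*Twist1*, *Prrx1*, *Pdgfra*, *Col3a1*, *Dcn*) summed to 773 to 825 CPM in penis and 1111 to 1254 in limb basal-like cells. The part of either in these differences was not tested.

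In suprabasal-like cells the basal keratins stayed high in penis and were low in limb. *Krt14* was at 4361, 3360.0 and 4431 CPM in penis against 659 and 559 in limb. *Krt15* was at 5237, 5635 and 5893 CPM against 762 and 1268, and *Krt5* at 2699.8, 3074 and 2605 against 903 and 756. Every penis library exceeded both limbs by more than 2-fold. The log2 changes were 2.76 ± 0.15 (SE) for *Krt14* (edgeR, adjusted p = 9.18e-09), 2.47 ± 0.17 for *Krt15* and 1.78 ± 0.14 for *Krt5*. All 3 were called. *Krt15* lost its call when cells were chosen by marker counts per cell (0.12) or when the *Asprv1*-led limb cells were added (−0.46). Of 20 members tested, 7 were called higher in penis and 7 lower (10.7% of all genes called, 5.21% higher and 5.49% lower), with a median log2 change of 0.14 over the members and 0.03 over all genes.

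The marker lists that named the layers were summed as well, and as the naming used them their levels here are a description. In suprabasal-like cells the 10 basal markers, none of them a keratin, summed to 480.3 to 663 CPM in penis and 271 to 282 in limb, and 5 of the 10 were higher in every penis library. The 12 suprabasal markers summed to 4175 to 5191 CPM in penis and 7350.0 to 8119 in limb, and 10 of the 12 were lower in every penis library. In basal-like cells the basal markers summed to 2194 to 2628 CPM in penis and 1855 to 1907 in limb. The part of these levels in the keratin differences was not tested.

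The other keratins called higher in penis suprabasal-like cells were *Krt2*, *Krt9*, *Krt6a* and *Krt7*. *Krt9* was at 275, 138 and 272 CPM against 8.29 and 14.6 (4.17 ± 0.42, SE), and *Krt2* at 48.0, 45.9 and 108 against 0 and 3.64 (4.54 ± 0.74). *Krt6a*, a keratin of stressed and companion-layer cells, was at 655, 982 and 1013 CPM against 178 and 264 (1.98 ± 0.22). *Krt7* was at 97.4, 109 and 119 CPM against 20.7 and 52.8 (1.38 ± 0.29), and its call was lost without penis 2 (1.38, adjusted p = 0.0146 in edgeR), with DESeq2 (adjusted p = 0.0129) and in clusters of ordinary depth (0.97). In all 4 the groups were apart. *Krt6a* and *Krt7* changed direction when suprabasal cells were chosen by marker counts per cell instead of clusters (−1.10 and −1.80), or when the *Asprv1*-led limb cells were added (−1.53 and −4.54).

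Among the differentiation pair, *Krt10* fell and *Krt1* was not called. *Krt1* was at 3126, 2118 and 2175 CPM in penis and 2809 and 3829 in limb, with overlapping groups (−0.40 ± 0.16, SE; edgeR, adjusted p = 0.0950). *Krt10* was at 1196, 1136 and 467 CPM against 3613 and 4477 (−2.08 ± 0.27; edgeR, adjusted p = 4.51e-05). A penis suprabasal-like sum thus held 0.383, 0.536 and 0.215 UMIs of *Krt10* per UMI of *Krt1*, and a limb sum 1.29 and 1.17. *Krtdap* was at 1995, 2166 and 2362 CPM against 3559 and 5659.5 (−1.06 ± 0.15), just past the limit on size, and was not called without penis 1 (−0.99), without the hindlimb (−0.72), in clusters of ordinary depth (−0.37), with cells chosen by marker counts (−0.87) or with the *Asprv1*-led limb cells added (−0.63). *Krt77* was at 11.6, 5.29 and 5.28 CPM against 228 and 561 (−5.63 ± 0.40).

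The remaining 4 lower members were carried mostly by one limb or by few UMIs. *Krt36*, a hair keratin, had no UMI in penis suprabasal-like cells, 557 in forelimb and 16 in hindlimb, which made it at least 395-fold lower in penis against a floor of 3 counts over the penis group, or at least 15.9-fold without the forelimb. These UMIs lay in 4 forelimb and 2 hindlimb cells, with 508 and 15 of them in 1 cell each, and the call was lost with DESeq2 (−11.74, adjusted p = 0.0299). *Krt23* had none in penis and 40 in limb, at least 27.6-fold lower (16.0-fold without penis 1 and 18.0-fold without penis 2), but was at 1.05 with cells chosen by marker counts. *Krt84* was at 23.2, 0 and 18.5 CPM against 679 and 29.1 (−4.42 ± 0.98, SE), and its call was lost without forelimb (−1.02), penis 1 (−5.30) or penis 2 (−3.82), with DESeq2 (−4.71, adjusted p = 0.164), with cells chosen by marker counts (−3.97) and with the *Asprv1*-led cells added (−3.77). Its forelimb UMIs lay in 4 cells, 146 of 164 in 1 of them, and those of hindlimb in 1 cell. *Krt19* was at 0, 1.76 and 23.8 CPM against 49.7 and 206 (−4.45 ± 0.68), and lost its call without the hindlimb (−2.88), where 1 cell held 92 of 113 UMIs, with DESeq2 (−3.96, adjusted p = 0.258) and with cells chosen by marker counts (−1.29). *Krt17* (−0.57 ± 0.32) and *Krt80* (0.69 ± 0.43; −1.74 and called with the *Asprv1*-led cells added), *Krt13* (2.27 ± 0.64), *Krt4* (−0.74 ± 0.39) and *Krt16* (2.46 ± 1.14) were not called.

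**Figure D2:**
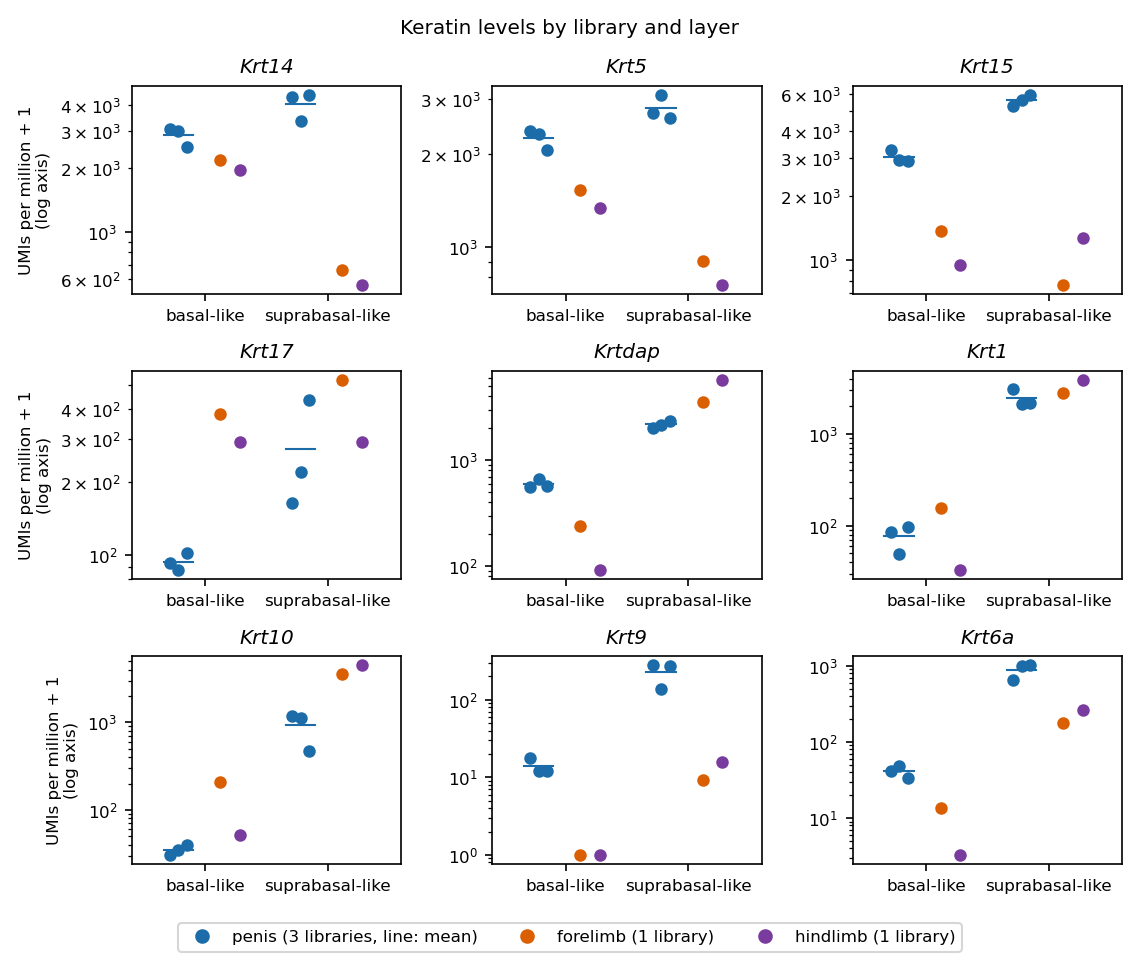
CPM plus 1 (log axis, its range set per gene) of 9 members in basal-like and suprabasal-like cells; each point is 1 library and the line is the mean of the 3 penis libraries. *Krt14* and *Krt5* lie higher in suprabasal-like than in basal-like cells in penis and lower in limb, and *Krtdap* is above both limbs in basal-like cells and below them in suprabasal-like cells.

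Whether the penis against limb change itself differed between layers was asked of an interaction term, in a fit over both layers that took the library as a block. The layers were cut by clustering in each tissue apart, so the p-values of this term do not cover where the cut fell. Values for 21 members were tested, and 2 were called higher and 1 lower in suprabasal-like cells (2.51% of all genes called, 1.09% higher and 1.42% lower), and the median difference was −0.46 over the members and −0.02 over all genes. The change of *Krt14* was larger in suprabasal-like cells by 2.08 ± 0.17 (log2, SE; edgeR, adjusted p = 4.16e-08). That of *Krtdap* turned over, from 1.95 in basal-like to −1.06 in suprabasal-like cells, a difference of −3.09 ± 0.31 (edgeR, adjusted p = 6.90e-07). Over 14 alternatives *Krt14* stayed called between 1.56 and 2.57 and *Krtdap* between −4.27 and −2.21. The difference for *Krt5*, the partner of *Krt14*, was 0.93 ± 0.14 (edgeR, adjusted p = 0.000191), short of the limit on size. It passed at resolution 2 (1.04), with keratins kept in the clustering (1.00113) and without the top doublet scores (1.02), and was at −0.04 with cells chosen by marker counts. *Krt16*, a keratin of stressed cells, differed by 5.16 ± 0.96, from 1.11, 1.00 and 1.24 CPM in penis basal-like cells to 10.2, 24.7 and 145 in suprabasal-like cells, against 23.8 and 2.28 in forelimb and hindlimb basal-like cells and 24.9 and 1.82 in suprabasal-like ones. Penis 3 held 55 of the 76 penis suprabasal-like UMIs, these 55 lay in 3 cells, and the group with the fewest had 6. Without penis 3 it was 3.64 (adjusted p = 0.0395 in edgeR), without the forelimb 5.51 (adjusted p = 0.285), without the top doublet scores 2.52 (adjusted p = 0.466) and with cells chosen by marker counts 1.40 (adjusted p = 0.728, all in edgeR), none of them called. *Krt15* (0.89 ± 0.22), *Krt17* (1.01 ± 0.27), *Krt7* (0.99 ± 0.47), *Krt6a* (−0.44 ± 0.54) and *Krt18* (−1.38 ± 0.80; −5.58 and called with the *Asprv1*-led cells added) were not called. *Krt15* was called at 1.55 without the hindlimb, and called in the other direction with cells chosen by marker counts (−1.93) and with the *Asprv1*-led cells added (−2.01). *Krt7* likewise turned to −3.13 and −5.20 in those settings, both called. *Krt1* (−0.24 ± 0.39) and *Krt10* (−0.46 ± 0.44) were called only without the forelimb (−2.03 and −1.94), and *Krt19* (−1.85 ± 1.03) without penis 3 (−4.84) and with the *Asprv1*-led cells added (−6.87). For *Krt36*, *Krt84* and *Krt23* groups at 0 left no usable fit.

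**Figure D3:**
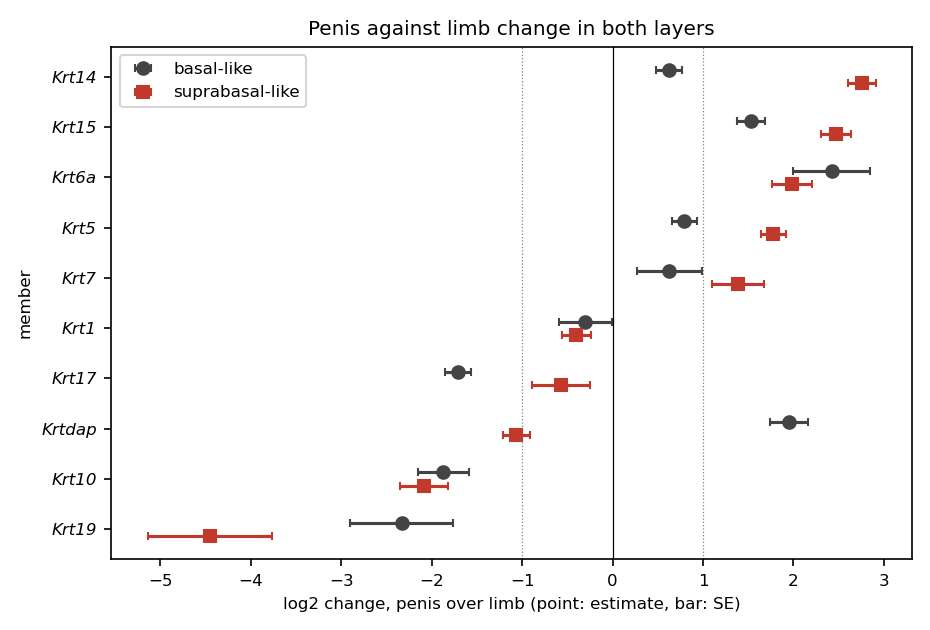
Log2 change, penis over limb, of the 10 members tested in both layers with more than 3 UMIs in every group, in basal-like cells (circles) and suprabasal-like cells (squares); bars are SE and dotted lines mark the limit of 1 either way. *Krtdap* lies at 1.95 in basal-like and −1.06 in suprabasal-like cells, and *Krt14* at 0.62 and 2.76.

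The layers of 1 tissue were set apart by clustering the same cells, so their difference is described with no test. Among 23 members with at least 30 UMIs in the layers together, 11 were higher in suprabasal-like cells in all 5 libraries. None was higher in basal-like cells in all 5. No share over all genes stands beside these counts, so they describe the members alone. *Krt1* was 32.7-fold higher in suprabasal-like cells in penis and 35.5-fold in limb, *Krt10* 27.5-fold and 31.6-fold, and *Krt6a* 21.9-fold and 29.6-fold. *Krtdap* was 3.64-fold higher in penis and 28.1-fold in limb. The basal pair went opposite ways in the summed layers. *Krt14* was 1.41-fold and *Krt5* 1.25-fold higher in suprabasal-like cells in all 3 penis libraries, and 3.40-fold and 1.73-fold lower there in both limbs. The penis suprabasal-like cluster of 79 cells had *Krt14* at 4337 CPM (6107 UMIs). That of 66 shallow cells was at 2117 CPM (478 UMIs), against 2909, 3203 and 412 in the basal-like penis clusters. *Krt5* was at 2850 and 2542 CPM, against 2280, 2455 and 306. *Krt15* was 1.84-fold higher in suprabasal-like cells in penis, and in limb lower in 1 library and higher in the other. All members together took 0.961, 0.922 and 0.839% of the UMIs of penis basal-like cells and 0.617 and 0.481% in limb, rising to 2.01, 1.92 and 2.04% and to 1.66 and 1.84% in suprabasal-like cells.

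The urothelial-like penis cells and the *Asprv1*-led limb cells carried the simple-epithelial and mucosal keratins. In the 70 urothelial-like cells, *Krt15* was at 7719, 6287 and 8802 CPM, *Krt19* at 4234, 2381 and 3464, *Krt4* at 2388, 2262 and 3369, *Krt13* at 1519, 1260.1 and 1648, and *Krt7* at 1591, 944 and 1594. *Krt8* was at 842, 516 and 763 CPM and *Krt18* at 491, 306 and 393, so *Krt18* had 0.584, 0.592 and 0.515 UMIs per UMI of *Krt8*. *Krt14* was low there, at 141, 363 and 81.3 CPM. The 80 *Asprv1*-led limb cells (35 of forelimb and 45 of hindlimb) had higher levels of the same genes: *Krt15* at 18885 and 18444 CPM, *Krt19* at 9793 and 8643, *Krt7* at 7579 and 4793, *Krt4* at 5598 and 7064, *Krt6a* at 7349.6 and 4452 and *Krt13* at 6868 and 2828. In these cells keratins took 6.28% of forelimb and 5.27% of hindlimb UMIs, and *Krt14* was at 76.4 and 45.4 CPM. They were shallow, with a median of 724 and 1299 UMIs per cell. No test was made, as each population was found in 1 tissue.

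*Krt8* and *Krt18* are obligate partners in simple epithelia, yet in penis most *Krt8* lay outside the epithelium and without *Krt18*. A penis cluster of 1818 cells led by *Myoc*, *Wif1* and *Agt*, with tendon markers as the list most raised, held 1603 of 2432 penis *Krt8* UMIs (65.9%). There *Krt8* was at 107, 108 and 99.1 CPM in the 3 libraries, against 75.3, 45.6 and 70.1 in epithelial-like cells and 1.30, 1.51 and 1.57 in all other cells. A *Krt8* UMI was found in 40.1, 40.2 and 36.9% of its cells, against 0.884, 1.05 and 0.917% of the other cells outside the epithelium. *Krt18* had only 12, 3 and 2 UMIs in the cluster, where 612, 582 and 409 were *Krt8*. *Krt14* was at 13.8, 11.9 and 14.1 CPM there and at 12.5, 16.5 and 13.8 in the other cells outside the epithelium. In whole libraries *Krt8* was at 13.8, 12.2 and 12.7 CPM in penis against 4.41 and 3.19 in the limbs, and *Krt18* at 2.72, 2.06 and 2.54 against 4.87 and 5.74, so the partners differed in opposite directions. Without the *Myoc* cluster the *Krt8* change was 0.27 in place of 1.70 and was not called. *Gm36026* overlaps *Krt8* on the other strand.

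**Figure D4:**
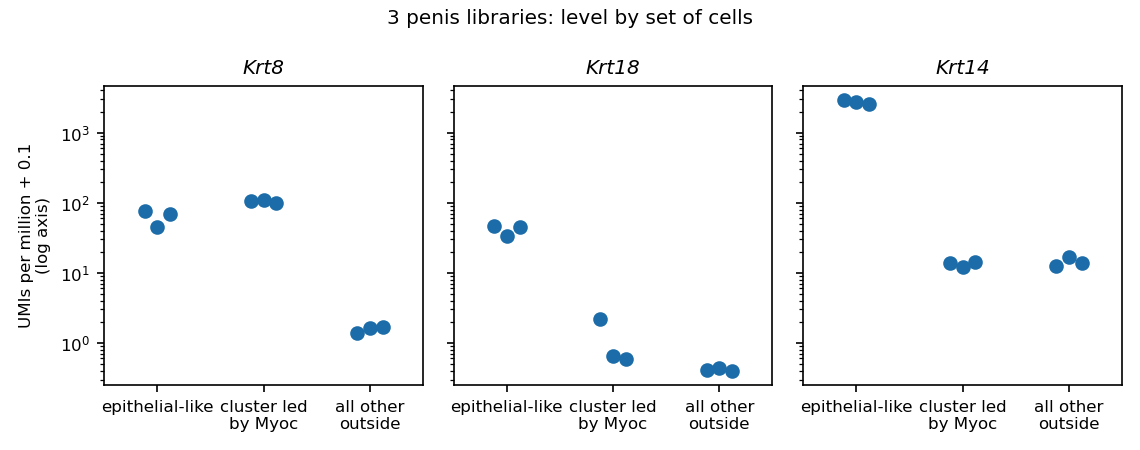
CPM plus 0.1 (log axis) of *Krt8*, *Krt18* and *Krt14* in epithelial-like cells, in the cluster led by *Myoc* and in all other cells outside the epithelium; points are the 3 penis libraries. *Krt8* in the cluster (99.1 to 108) is above its epithelial-like level. *Krt14* is near its level in other cells, and *Krt18* is at 0.485 to 2.09 in the cluster, 0.291 to 0.340 in other cells and 33.1 to 47.0 in epithelial-like cells.

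UMIs of other members lay outside the epithelium too. *Krt10* was at a median of 26.1 CPM over the penis clusters outside the epithelium and 25.6 over those of limb, and these cells held 71.3% of its penis and 67.8% of its limb UMIs, although *Gm11940* overlaps it. Endothelial cells, which should lack it, held a *Krt10* UMI in 8.73 to 13.1% of cells, unthinned. Penis cells outside both the epithelium and the *Myoc* cluster held one in 20.5 to 23.5%. UMIs of *Krt10* per UMI of *Krt1* were 7.12 to 9.72 outside the penis epithelium and 0.258 to 0.556 in epithelial-like penis cells. In forelimb and hindlimb they were 8.78 and 5.89 outside, against 1.25 and 1.18. Whether these UMIs are expression outside the epithelium was not tested. In limb, *Krt18* without keratinocytes stood at 17.1 CPM in a cluster of 2758 cells led by *Fam155a* and 8.17 CPM in 2907 cells led by *Gdf5*, a joint gene, against a median of 2.03 CPM per limb cluster. Limb *Krt8* was at 16.2 CPM (180 UMIs) in a muscle cluster that carries *Myog*. Outside the epithelium *Krt80* was highest in the cluster led by *S100a9* and *S100a8* (white blood markers), at 41.96 CPM in penis and 25.3 in limb. A penis cluster of 3006 cells led by *Ly6a* and *Wnt2* held 2062 *Krtdap* UMIs, 19.4% of those in penis, at 62.1 CPM against a median of 6.10 over the penis clusters outside the epithelium, with a UMI in 24.6% of its cells, against 2.83 to 4.60% of penis endothelial cells. *Krtdap* was higher still in a pair of limb clusters led by globin genes, at 259 CPM (86 UMIs) and 211 CPM (114 UMIs). *Krt15* (81.3 and 152 CPM), *Krt14* (42.2 and 104) and *Krt10* (223 and 86.9) were raised in these globin-led clusters too. The first (334 cells, penis included) had 9 of 10 epithelial markers raised. The second (134 cells) had 3 raised, with *Lor* and *Calm4* among its leading genes. The part of epithelial cells, doublets or free RNA in these clusters was not tested. *Krt20* had 55 of its 65 penis UMIs in the *Ly6a*-led cluster, *Krt33b* had 40 of its 57 limb UMIs in the *Myog*-carrying muscle cluster, and *Krt87* had 31 of its 49 limb UMIs in a chondrocyte cluster led by *Matn1*. *Krt83*, called higher in whole penis, had none of its 94 penis UMIs in epithelial-like cells.

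Forelimb and hindlimb are 1 library each, so their values are given with 95% exact Poisson intervals, which cover counting error only, and no test. In suprabasal-like cells 10 of 18 members had intervals that were apart. Such counts stand here without a share over all genes, so they describe the members alone. *Krt36* was at 2308 CPM (2120.0 to 2508) in forelimb and 29.1 (16.7 to 47.3) in hindlimb, and *Krt84*, another hair and nail keratin, at 679 (579 to 792) against 29.1 (16.7 to 47.3). Hindlimb was higher for *Krt77*, at 561 (500.1 to 627) against 228 (172 to 297), and for *Krt19*, *Krt4*, *Krt15*, *Krtdap*, *Krt1* and *Krt10*, between 1.24-fold and 4.14-fold, and forelimb for *Krt17* (1.79-fold). In whole libraries *Krt34* was higher in forelimb (72 against 23 UMIs), as was *Krt13* (2.78-fold), and 19 of 34 members had intervals apart. The intervals take UMIs as independent, yet of the suprabasal-like UMIs 1 forelimb cell held 508 of 557 for *Krt36* and 146 of 164 for *Krt84*, and 1 hindlimb cell held 92 of 113 for *Krt19*, 112 of 121 for *Krt4* and 160 of 308 for *Krt77*. In basal-like cells forelimb was higher for *Krt1* (4.87-fold), *Krt10* (4.11-fold), *Krtdap* (2.61-fold) and *Krt15* (1.44-fold), with 66 of 98 *Krt1* and 87 of 130 *Krt10* UMIs in 1 cell each, while the intervals of *Krt14*, *Krt5*, *Krt17* and *Krt18* overlapped.

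**Figure D5:**
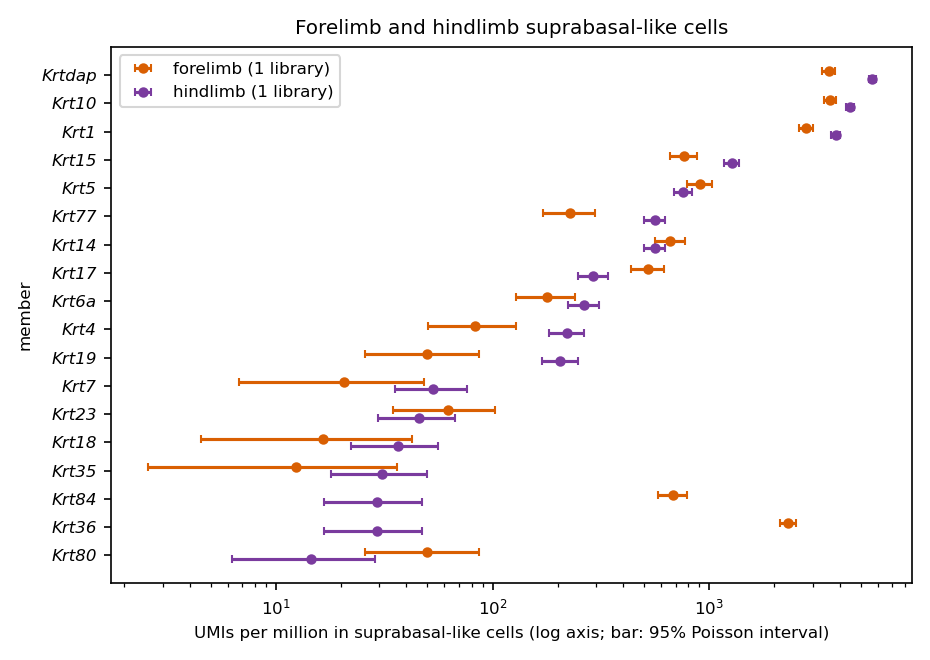
CPM (log axis) of 18 members in the suprabasal-like cells of the forelimb and the hindlimb library; bars are 95% exact Poisson intervals. *Krt36* and *Krt84* stand far higher in forelimb (2308 and 679) than in hindlimb (29.1 each), with most of their forelimb UMIs in 1 cell (508 of 557 and 146 of 164), while *Krt14* and *Krt5* overlap.

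Shares of cells that held a UMI were compared too. With each cell thinned to 2000 UMIs and shallower cells left out, *Krt14* was found in 69.5, 69.2 and 65.7% of suprabasal-like penis cells and in 42.5 and 28.3% of those of limb (71.7, 78.0 and 77.1% against 27.9 and 22.9% unthinned). *Krt15* was found in 92.8, 96.4 and 97.4% against 44.0 and 35.0% (90.0, 96.0 and 100% against 42.6 and 27.9% unthinned), and *Krt10* in 41.99, 40.6 and 23.0% against 87.5 and 90.3% (58.3, 54.0 and 48.6% against 77.9 and 87.1% unthinned). In each the groups were apart, and the two-sided exact permutation p was 0.1, the smallest that 3 against 2 libraries allow. In basal-like cells *Krt14* was found in 91.7, 91.0 and 88.8% against 95.2 and 90.6% (exact permutation p = 0.5; 85.5, 89.0 and 85.6% against 67.9 and 80.9% unthinned), and *Krtdap* in 47.4, 56.0 and 50.9% against 22.2 and 13.8% (65.1, 75.0 and 68.6% against 28.2 and 23.8% unthinned). Endothelial cells, which should lack keratinocyte genes, gave 2.65, 2.58 and 2.29% for *Krt14* in penis and 1.19 and 0.662% in limb, thinned alike. Their shares for *Krt15*, *Krt10* and *Krtdap* lay between 0.224 and 3.68% in every library. Thinning left out 14, 8 and 3 suprabasal-like penis cells, 33 of forelimb and 68 of hindlimb, and 27, 23 and 21 basal-like penis cells, 26 of forelimb and 16 of hindlimb. Before thinning, the median depth of the endothelial cells was 9045 to 9411 UMIs in penis and 5831 and 8271 in limb, and that of the suprabasal-like cells 5362 to 9894 and 2119 and 2129.

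Genes that work with keratins were counted by list. Of 20 genes of desmosomes and keratin linkers, 19 were tested in each layer. In basal-like cells 4 were higher and 1 lower in penis, and in suprabasal-like cells 3 higher and 6 lower. Of all genes tested, 5.41% were called higher and 4.52% lower in basal-like cells, and 5.21% and 5.49% in suprabasal-like cells. Among those higher in both layers were the desmosomal cadherins *Dsc2*, by 2.90 ± 0.61 (log2, SE) in basal-like and 3.61 ± 0.32 in suprabasal-like cells, and *Dsg3*, by 2.47 ± 0.28 and 1.57 ± 0.27. *Dsc3* (1.41 ± 0.18) was also higher in basal-like cells, where the plakophilin *Pkp2* (−2.98 ± 0.70) was lower. The hemidesmosome collagen *Col17a1* was higher in suprabasal-like cells (2.75 ± 0.37), while *Dsc1*, a late desmocollin, was lower there (−6.60 ± 0.58), as were *Evpl* (−1.68 ± 0.29) and *Eppk1* (−1.45 ± 0.31). Of 12 cornified envelope genes tested in suprabasal-like cells, none was higher and 9 were lower, with a median of −2.96 against 0.03 over all genes. The largest falls were *Hrnr* (−9.62 ± 0.75), *Lor*, the main envelope protein (−6.23 ± 0.21), and *Sprr1b* (−6.03 ± 0.50). The limb suprabasal-like cells took in a shallow cluster of 26 cells led by *Lor*, *Calm4* and *Hrnr*. Its part in these falls was not tested. In basal-like cells 5 of the cornified envelope genes were tested, of which *Lor* was higher (2.02 ± 0.31) and *Dmkn* lower (−1.29 ± 0.16). Of epidermal transcription factors, 1 was higher and 4 lower among 19 tested in basal-like cells, and 3 higher and 8 lower among 18 in suprabasal-like cells. *Ehf* was higher in both (5.02 ± 0.67 and 4.08 ± 0.29), *Trp63*, the master factor of the basal layer, was higher in suprabasal-like cells (1.21 ± 0.22), as was *Tfap2b* (1.40 ± 0.26). *Satb1* (−1.84 ± 0.17), *Cebpa* (−1.66 ± 0.40) and *Tfap2c* (−1.57 ± 0.23) were lower in basal-like cells, and *Klf4* (−2.32 ± 0.20), *Cebpa* (−2.68 ± 0.38) and *Cebpb* (−2.66 ± 0.17), factors of differentiation, were lower in suprabasal-like cells. The lists share genes with the markers that named the clusters: *Col17a1*, *Dst*, *Itgb4* and *Trp63* for basal-like clusters, *Dsg1a*, *Dsc1*, *Ivl*, *Cnfn*, *Cdsn*, *Sbsn*, *Dmkn*, *Tgm1*, *Calml3* and *Grhl3* for suprabasal-like clusters, and *Dsp* and *Perp* for the epithelium. Their values within these layers, and the list counts that hold them, are therefore a description.

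Of the 54 members, 30 had at least 100 UMIs over the 5 libraries and 3 had none (*Krt72*, *Krt76* and *Krt82*). Among them were all 3 basal keratins (25756 to 51147 UMIs), all 8 epidermal differentiation genes (191 to 17935) and all 7 simple-epithelial keratins (102 to 8121). The 7 inner root sheath keratins, which line the growing hair, had 0 to 55 UMIs each, and 11 of the 15 hair keratins stayed under 100. At 0 UMIs of a library's total the level could still be up to 0.0582 CPM in penis 3 and 0.0202 CPM in hindlimb, the highest and lowest of these floors of 3 counts.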

How the data were processed

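Cells of 3 penis libraries (postnatal day 6) and of 1 forelimb and 1 hindlimb library (embryonic day 15) were captured with a 3′ droplet method. Per the submitters' processing notes and the file headers, the authors counted UMIs with Cell Ranger 7.0.0 against mm10, and the deposited matrices hold raw UMI counts per gene and barcode. Barcodes were filtered by the limits that the study's methods state as reads, read here as genes: 500 to 6000 genes and at most 5% mitochondrial UMIs in penis, 100 to 9000 (forelimb) or 9500 (hindlimb) genes and at most 10% in limb, and a ratio of log10 genes to log10 UMIs of at least 0.8. This left 62152 cells. Groups came from the tissue labels, and no column of per-sample values was left unused.

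Cells were normalised to 10000 UMIs and clustered in scanpy 1.11.5 (igraph 0.11.9) over 3000 variable genes without keratins, 50 components, 20 neighbours and resolution 1. Of 42 clusters, 2 held epithelial markers, and these were clustered again by tissue into 13 penis and 9 limb clusters. Clusters were named from fixed marker lists that hold no keratin, by a scoring rule set after the clusters were seen. Scrublet's own threshold marked between 0 and 468 cells a library and was not used, so doublets remained in the sums. An alternative left out the cells with the top scores, 0.8% per 1000 barcodes.

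UMIs were summed per library and cell class and compared with edgeR 4.0.16 (TMM, low-count filter, quasi-likelihood test, R 4.3.3) over all genes. The interaction was fitted over both layers with the library as a block. SE is the log2 change over the root of F. A gene was called at an adjusted p under 0.01 and a log2 change beyond 1. The steps were tested on simulated counts. Alternatives were DESeq2 1.42.0, no filter, each library left out, all barcodes, resolution 2, keratins kept in the clustering, cells chosen by at least 3 markers each, clusters of ordinary depth, the *Asprv1*-led cluster added, and that cluster and the urothelial-like one both left out. A limb library that stands alone when the other is left out is assumed to vary like the penis libraries. Poisson intervals and floors of 3 counts cover counting error only. Promoters came from RefSeq (GRCm38.p6). The members and lists were chosen with earlier results of these data known. Named with values are members called in a comparison and basal, simple-epithelial and differentiation genes with at least 100 UMIs.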

Additional observations from a re-analysis of the deposited data

Results flagged for a closer look

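For 3 members the penis against limb change itself differed between suprabasal-like and basal-like cells past both limits of the edgeR interaction test. Of all 8796 genes tested, 2.51% were called. The layers were cut by clustering in each tissue apart, and the p-values do not cover where the cut fell. The log2 difference was 2.08 ± 0.17 (SE; edgeR, adjusted p = 4.16e-08) for *Krt14*, whose groups held at least 466 UMIs each. It was −3.09 ± 0.31 (edgeR, adjusted p = 6.90e-07) for *Krtdap*, with at least 190 UMIs in each group. For *Krt16* it was 5.16 ± 0.96 (edgeR, adjusted p = 0.00136), with 6 UMIs in the smallest group and most penis UMIs in 1 library, and the call was lost in 4 of 14 alternatives (range 1.40 to 5.87).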

How the results depend on the processing

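Only 2 limb libraries entered, each of another limb, so the spread within limb holds the difference between limbs, and the limb layers rested on 141 basal-like and 208 suprabasal-like cells. Most values over single members and settings kept their side of the limits, and their direction where either fit called them. These were 181 of 206 in whole libraries, 292 of 337 in epithelial-like cells and 144 of 164 in basal-like cells. In suprabasal-like cells they were 181 of 207, and for the interaction 113 of 130. A turn of direction that neither fit called was counted as kept, as for *Krt1* in basal-like cells (−0.91 to 1.37 over 13 settings). No paired analysis of penis against limb was possible, because P6 mice and embryos are different animals. The labels do not say whether the forelimb and hindlimb libraries share embryos. The cause of the changes below was not tested.

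Counts over all members moved as follows, beside counts over all genes. Whole libraries with all barcodes called 2982 genes higher and 2557 lower of 22429 (main fit 2827 and 2500 of 21723). Without the *Myoc* cluster they called 2846 and 2510 of 21545. Cells chosen by markers called 475 and 401 of 12351 in basal-like cells and 53 and 103 of 11438 for the interaction. The interaction called 135 and 159 of 8800 with keratins kept and 168 and 429 of 9337 with the *Asprv1*-led cells. In whole libraries the 11 higher became 17 with all barcodes and the 5 lower became 3 without the *Myoc* cluster, and 3 to 7 with a library left out. In epithelial-like cells the 4 higher became 12 in clusters of ordinary depth, and the 20 lower became 7 there, 11 with cells chosen by markers and 10 without both the urothelial-like and the *Asprv1*-led cells. Over all genes these settings called 744 higher and 541 lower of 11799, 734 and 747 of 13565, and 639 and 617 of 11755. The main fit called 736 and 823 of 12222. In basal-like cells the 5 higher ranged from 3 to 5 and the 4 lower from 1 to 4 with a library left out, and the 4 lower became 1 with DESeq2 and 0 with cells chosen by markers. In suprabasal-like cells the 7 higher became 4 with the *Asprv1*-led cells added, and the 7 lower became 15 there and 4 with DESeq2. Over all genes, adding the *Asprv1*-led cells called 679 of 7402 lower (main fit 391 of 7119). The number of genes called higher rose slightly as well. For the interaction the 2 higher became 4 with keratins kept in the clustering and 1 with cells chosen by markers (1 to 3 with a library left out), and the 1 lower became 4 with cells chosen by markers and 9 with the *Asprv1*-led cells (1 to 3 with a library left out). Over all genes DESeq2 called 380 higher and 352 lower in basal-like cells (edgeR 595 and 497), 226 and 264 in suprabasal-like cells (edgeR 371 and 391), and 50 and 64 for the interaction (edgeR 96 and 125).

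The direction turned for 11 members in epithelial-like clusters of ordinary depth: *Krt13* (5.50), *Krt15* (1.79), *Krt18* (0.68), *Krt19* (2.24), *Krt23* (1.81), *Krt4* (1.97), *Krt6a* (1.51), *Krt7* (2.81), *Krt78* (4.29), *Krt8* (2.65) and *Krt80* (1.71). That setting drops the *Asprv1*-led limb cells and keeps the urothelial-like penis cells. Without both populations it turned for *Krt13* (1.18), *Krt15* (1.56), *Krt6a* (1.07), *Krt7* (0.56) and *Krt80* (0.75). With cells chosen by markers it turned for *Krt19* in basal-like cells (1.94), and for *Krt23* (1.05), *Krt6a* (−1.10) and *Krt7* (−1.80) in suprabasal-like cells. In the interaction it turned there for *Krt15* (−1.93) and *Krt7* (−3.13). These lists leave out turns that neither fit called, such as *Krt5* in the interaction (0.93 to −0.04 with cells chosen by markers). With the *Asprv1*-led cells added it turned for *Krt15* (−0.46), *Krt6a* (−1.53), *Krt7* (−4.54) and *Krt80* (−1.74) in suprabasal-like cells, and for *Krt15* (−2.01) and *Krt7* (−5.20) in the interaction. Settings on the *Myoc* cluster, doublet scores, cluster depth and the *Asprv1*-led and urothelial-like cells were chosen after seeing the data. Of 36 shares of cells recomputed at another depth, 24 moved by more than the spread between libraries.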
